A study of Mus musculus with 18 samples.

Results

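Ptprc, Cd3e, Cd207, Itgam, Itgax, Csf1r, Lyz2, Tyrobp, Fcer1g and Csf3r, 10 of the 23951 genes in the expression table, are leukocyte and Langerhans cell genes and were taken by their symbols. They were followed in 18 RNA-seq libraries of sorted mouse ear skin cells, 3 mice in each of 6 groups. Hair follicle stem cells (HF-SCs, sorted as CD45- CD49f high CD34+) and basal keratinocytes (b-KCs, sorted as CD45- CD49f high CD34-) came from control mice (Co) 810, 825 and 828 and from psoriasis-like DKO* mice 814, 815 and 817. DKO* mice carry floxed alleles of JunB and c-Jun, a tamoxifen-inducible K5-Cre-ERT and the mT/mG reporter, in which cells switch from Tomato to GFP when Cre acts. Co mice carry K5-Cre and mT/mG, with c-Jun and JunB either wild-type or heterozygous. All mice, males and females of a mixed background, were 8 weeks old and received 4 daily injections of 2 mg tamoxifen, and cells were sorted at day 7. Each DKO* mouse gave a GFP and a Tomato (Tom) fraction of both cell types. The Co labels name no colour fraction, so a difference between a DKO* fraction and Co cannot be told apart from a difference in the colour gate. Cre is driven from the K5 promoter, which is active in basal keratinocytes.

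The gate left out cells with CD45 on their surface, the protein encoded by Ptprc, which nearly all leukocytes carry. Langerhans cells are the resident antigen-presenting cells of the epidermis, are marked by langerin (Cd207) and depend on the receptor Csf1r and its keratinocyte ligand Il34. Macrophages, monocytes and neutrophils use the integrin chain Itgam and the signalling adaptors Tyrobp and Fcer1g, which carry immunoreceptor motifs and pass the signals of many activating receptors to the kinase Syk. Psoriatic skin is known for infiltrating neutrophils, dendritic cells and T cells.

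Values are FPKM (fragments per kilobase of transcript and per unit of sequencing depth), so levels of different genes are per length. Low FPKM values implied a depth of 16500000 to 26270000 reads per library. The sorted cells had the keratinocyte marker Krt5 at 2299 to 7318 FPKM in every library, and the bulge marker Cd34 was at 161 to 889 FPKM in the HF-SC libraries and at no more than 2.53 in the b-KC libraries. A listed 0 is not always a missing transcript, since Krt14, a keratin of all basal cells, was listed at 0 in 3 b-KC libraries.

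All 10 genes were low in these cells. Of their 180 values, 154 were below 1 FPKM, 18 were listed at 0 and 50 were at or below what 3 reads are worth in that library, a floor that covers counting error only. The highest value was 9.40 FPKM, of Fcer1g in HF-SC GFP of mouse 817. The FPKM summed over the 10 genes was 4.07, 4.30 and 1.92 in HF-SCs of Co mice, 6.35, 5.55 and 29.2 in the GFP fraction of HF-SCs and 10.7, 11.4 and 21.0 in their Tom fraction, for mice 810, 825 and 828 or 814, 815 and 817 in this order, which is kept throughout. In b-KCs the sum was 1.11, 1.35 and 0.778 FPKM in the Co libraries, 2.79, 2.93 and 4.17 for GFP and 0.930, 1.52 and 3.47 for Tom. The sum was therefore higher in every DKO* HF-SC library than in every HF-SC Co library, and the b-KC Tom libraries overlapped with b-KC Co. In sorted bulk samples, fewer cells of a type and less RNA per cell cannot be told apart.

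**Figure D1:**
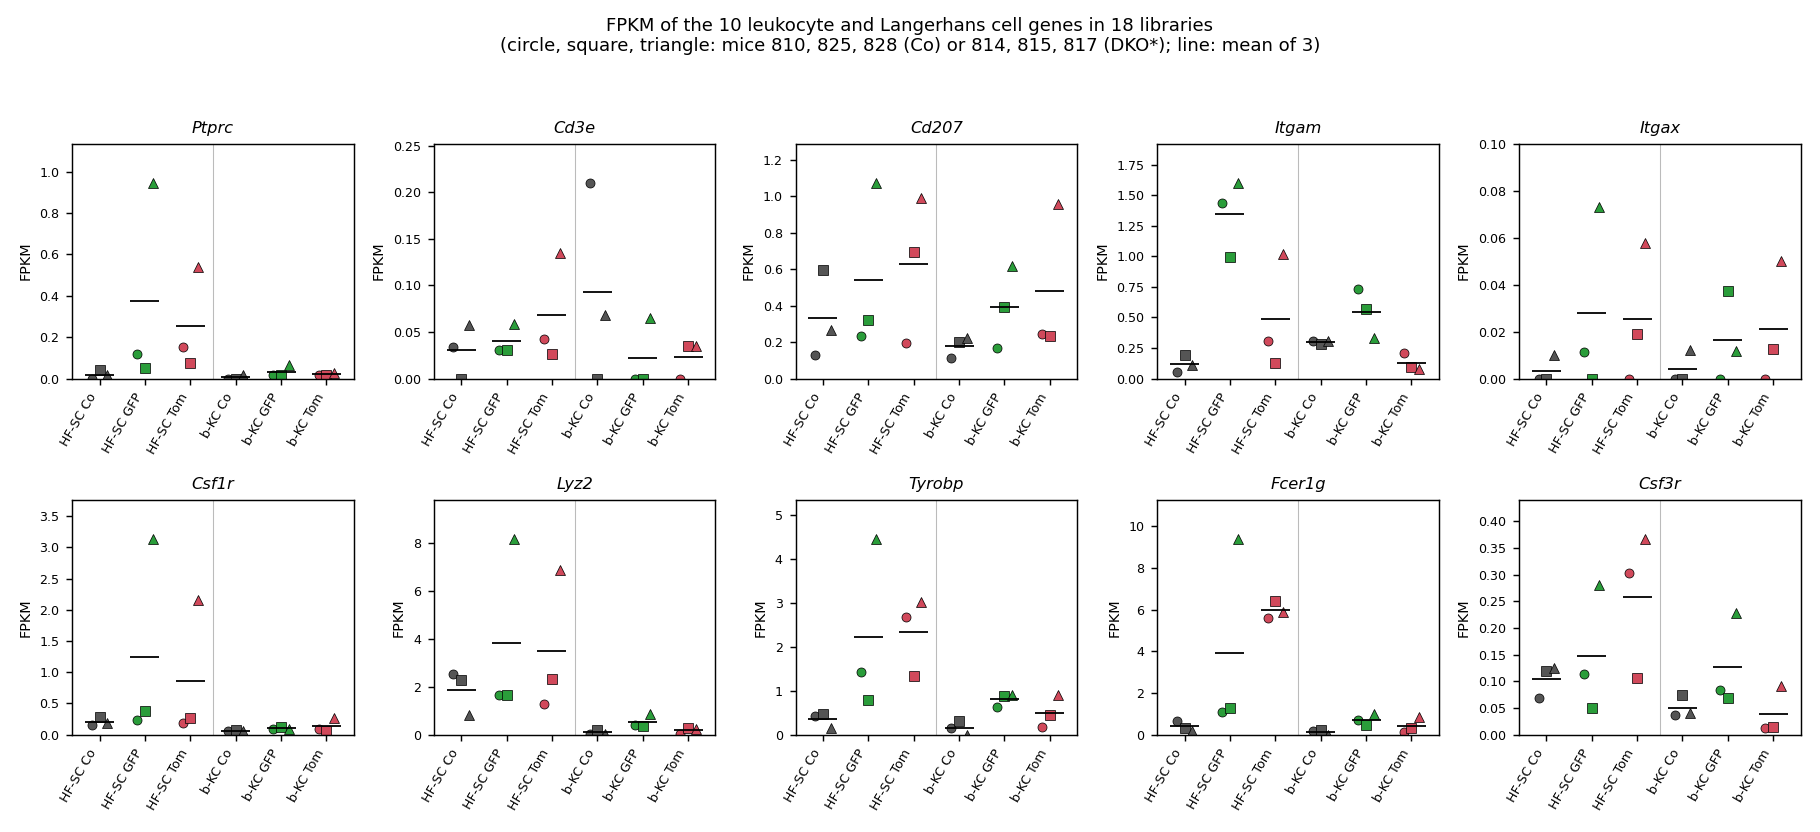
FPKM (y axis, linear, a scale of its own for each gene) of the 10 genes in the 6 groups (x axis), 1 point per library with the mouse given by the marker shape and the mean of 3 libraries as a line. Mouse 817 (triangles in the DKO* groups) is the highest of its group for all 10 genes in HF-SC GFP, while Fcer1g in HF-SC Tom is high in all 3 mice, at 5.60 to 6.42 FPKM.

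Fcer1g and Tyrobp encode the adaptor chains. Fcer1g, the common gamma chain of Fc receptors (chromosome 1, 173159703 to 173164496, minus strand, NCBIM37), had 0.667, 0.325 and 0.187 FPKM in HF-SCs of Co mice, with 1.09, 1.29 and 9.40 in the GFP fraction and 5.60, 6.42 and 5.89 in the Tom fraction. Every DKO* HF-SC library was above every HF-SC Co library, and the Tom libraries lay close together while GFP rested on mouse 817 for most of its mean. Against HF-SC Co, Fcer1g was higher in HF-SC Tom, by 2.34 in log2(FPKM + 1) (SE 0.42, adjusted p = 0.000362, limma with Benjamini-Hochberg adjustment), with a mean of 5.97 ± 0.412 FPKM against 0.393 ± 0.247 (SD, n = 3). It rose in HF-SC GFP by 1.42 (SE 0.42, adjusted p = 0.0143, same test), and by 0.67 without mouse 817 (adjusted p = 0.00280, same test), and this rise missed the threshold without Co mouse 825 or 828 (adjusted p = 0.0514 and 0.0657, same test) and in a fit of only the groups compared (adjusted p = 0.0795, same test). The scale adds a pseudocount of 1 and understates changes of genes with low FPKM. The Tom and GFP fractions differed by 0.92 (adjusted p = 0.231, limma), a difference that did not pass the threshold of 0.05, and by 1.68 without mouse 817 (adjusted p = 4.61e-06, limma).

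In b-KCs, Fcer1g had 0.196, 0.201 and 0 FPKM in the Co libraries, with 0.691, 0.455 and 1.00 for GFP and 0.143, 0.308 and 0.844 for Tom. The GFP libraries did not overlap with Co and the Tom libraries did. The difference from b-KC Co was 0.59 in GFP (95% interval -0.30 to 1.48) and 0.31 in Tom (95% interval -0.58 to 1.21) on the log2(FPKM + 1) scale, and neither passed the test (adjusted p = 0.270 and 0.567, limma). The Tom difference from Co in HF-SCs exceeded that in b-KCs by 2.02 (95% interval 0.76 to 3.28, adjusted p = 0.0295, limma interaction term), and the call was lost when any mouse other than 817 was left out (adjusted p = 0.0821 to 0.132, limma). Without a filter its adjusted p was 0.0483 (limma). The GFP difference was larger in HF-SCs by 0.82 (95% interval -0.44 to 2.08), which did not pass the test (adjusted p = 0.376, limma).

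Tyrobp, also known as DAP12 (chromosome 7, 31198807 to 31202596, plus strand), had 0.431, 0.473 and 0.145 FPKM in HF-SCs of Co mice, with 1.42, 0.789 and 4.46 in the GFP fraction and 2.67, 1.34 and 3.01 in the Tom fraction. All 6 DKO* HF-SC libraries were above the 3 Co libraries. Tyrobp rose by 1.28 (SE 0.32, adjusted p = 0.00421, limma) in HF-SC Tom and by 1.10 (SE 0.32, adjusted p = 0.0123, limma) in HF-SC GFP, and without mouse 817 the GFP value was 0.63 (adjusted p = 0.0195, limma). The rise in GFP missed the threshold without Co mouse 828 (adjusted p = 0.0625, limma). In b-KCs it had 0.152, 0.312 and 0 FPKM in the Co libraries, with 0.625, 0.882 and 0.914 for GFP and 0.167, 0.448 and 0.893 for Tom. The b-KC GFP libraries were all above b-KC Co, with a difference of 0.65 (95% interval -0.02 to 1.32, adjusted p = 0.110, limma), and the b-KC Tom libraries overlapped with Co. The Tyrobp differences did not pass the test of HF-SCs against b-KCs (adjusted p = 0.189 for Tom and 0.529 for GFP, limma).

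Most receptors that use these chains were below 1 FPKM. Of Trem1, Trem2, Clec5a, Fcgr1, Fcgr3, Fcgr4, Clec4e, Ms4a2 and Fcer1a, only Fcgr3 and Clec4e reached 1 FPKM in any library. Trem1 (0.751 FPKM), Fcgr1 (0.455) and Clec5a (0.363) were highest in HF-SC GFP of mouse 817, and Trem1 and Fcgr1 reached 0.513 and 0.285 in its HF-SC Tom. Fcgr3, a low-affinity IgG receptor, had 0.721, 0.593 and 0.516 FPKM in HF-SCs of Co mice, with 0.795, 0.825 and 5.22 in the GFP fraction and 1.47, 1.32 and 2.41 in the Tom fraction, differences that did not pass the test (adjusted p = 0.106 in both, limma). In b-KCs it fell from 4.55, 3.23 and 1.92 FPKM in Co to 0.747, 0.332 and 0.521 in GFP and 0.174, 0.0749 and 0.299 in Tom (adjusted p = 0.00598 and 0.00100, limma). Fcgr3 was thus higher than Fcer1g in every b-KC Co library, while in b-KC Tom Fcer1g was above Fcgr3 in 2 of 3 libraries. Clec4e (Mincle) reached 0.533, 0.0532 and 3.21 FPKM in GFP HF-SCs and was listed at 0 in all HF-SC Co libraries. Syk, the kinase that both adaptors recruit, was at 1.05 to 3.02 FPKM in all 18 libraries and passed no test against Co.

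Itgam encodes CD11b, the alpha chain of the complement receptor Mac-1 of myeloid cells (chromosome 7, 135206154 to 135271674, plus strand). It had 0.0521, 0.194 and 0.114 FPKM in HF-SCs of Co mice, with 1.44, 0.992 and 1.60 in the GFP fraction and 0.310, 0.130 and 1.02 in the Tom fraction. All GFP libraries were above all Co libraries, at a similar level in the 3 mice, and the Tom libraries overlapped with both. Itgam rose in HF-SC GFP by 1.06 (SE 0.18, adjusted p = 0.000252, limma), with means of 1.34 ± 0.314 and 0.120 ± 0.0714 FPKM (SD, n = 3). Its HF-SC Tom value differed from Co by 0.36 (95% interval -0.01 to 0.74, adjusted p = 0.108, limma), and it was lower in Tom than in GFP by a log2 difference of -0.69 (SE 0.18, adjusted p = 0.0208, limma). The difference between Tom and GFP was lost with the mouse as a fixed block (adjusted p = 0.0841, limma), without mouse 814 or 815 (adjusted p = 0.273 and 0.196, limma) and in 3 other settings.

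Itgam had another pattern in b-KCs, at 0.304, 0.283 and 0.304 FPKM in the Co libraries, with 0.734, 0.565 and 0.331 for GFP and 0.212, 0.0975 and 0.0756 for Tom. The 3 groups did not overlap, with GFP above and Tom below Co, but neither difference from Co passed the test (0.24 with adjusted p = 0.284 for GFP and -0.20 with adjusted p = 0.365 for Tom, limma). The change to GFP in HF-SCs exceeded that in b-KCs by 0.81 (95% interval 0.28 to 1.35, adjusted p = 0.0443, limma interaction term), and this call too was lost when any mouse other than 817 was left out (adjusted p = 0.0826 to 0.162, limma). Without a filter its adjusted p was 0.0479 (limma). The change to Tom differed by 0.57 (95% interval 0.03 to 1.10, adjusted p = 0.145, limma), which did not pass. Itgb2, the beta chain that CD11b needs to reach the cell surface, was at 0.188, 0.0936 and 1.21 FPKM in HF-SC GFP and at or below 0.474 in the other groups. In HF-SC GFP of mice 814 and 815, Itgam was thus above its partner chain by several-fold per length, while in mouse 817 both chains were above 1 FPKM.

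Itgax (CD11c, the integrin alpha chain of dendritic cells), the neighbour of Itgam on chromosome 7 (135273061 to 135294171, plus strand), was listed at 0 in 8 of 18 libraries and reached 0.0732 FPKM at most, and 14 libraries were at or below the 3-read floor. No difference of Itgax was detectable at this depth.

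The 250 bases before the RefSeq start sites of Fcer1g (chr1:171234350-171234599, minus strand) and Itgam (chr7:128062390-128062639, plus strand) are shown because these genes had the smallest adjusted p of the list in the Tom and in the GFP fraction of HF-SCs. They are from GRCm38.p6, a later build than the mm9 coordinates above, are written 5′ to 3′ on the strand of the gene, and carry in capitals the letters GAGGAA and AGGAAG or their reverse complements, 2 overlapping spellings of the core that PU.1 (Spi1), the myeloid ETS factor, is known to bind.
Fcer1g: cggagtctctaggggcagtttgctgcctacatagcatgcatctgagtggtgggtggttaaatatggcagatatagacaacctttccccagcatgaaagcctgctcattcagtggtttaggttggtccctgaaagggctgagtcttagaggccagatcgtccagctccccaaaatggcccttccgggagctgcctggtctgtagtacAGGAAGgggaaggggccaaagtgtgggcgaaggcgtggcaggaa
Itgam: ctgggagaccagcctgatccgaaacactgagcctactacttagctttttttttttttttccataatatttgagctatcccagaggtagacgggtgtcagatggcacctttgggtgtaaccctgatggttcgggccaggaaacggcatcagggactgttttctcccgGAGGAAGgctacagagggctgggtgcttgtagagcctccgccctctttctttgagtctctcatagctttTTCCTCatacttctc
AGGAAG was found on either strand in 7 of the 8 members with an entry in the promoter table and in 29.2% of all 27025 promoters, and GAGGAA in 5 of 8 and in 23.1%. Tyrobp and Csf1r have no entry. A match is a description of the letters only, and the motifs were chosen with the results known. Spi1 itself had 0.256, 0.0803 and 0.0616 FPKM in HF-SCs of Co mice, with 0.470, 0.670 and 2.21 in the GFP fraction and 0.499, 0.685 and 1.25 in the Tom fraction, and rose in HF-SC GFP and in both b-KC fractions (log2 differences 0.82, 0.84 and 0.86, adjusted p = 0.0210, 0.0175 and 0.0143, limma), while its HF-SC Tom difference of 0.66 had an adjusted p = 0.0502. Without mouse 817 and without a filter its HF-SC GFP difference did not pass (adjusted p = 0.110, limma).

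Lyz2 encodes lysozyme M of macrophages and neutrophils (chromosome 10, 116714390 to 116719377, minus strand), and its near-identical neighbour Lyz1 makes its FPKM uncertain where reads fit both. It had 2.54, 2.28 and 0.815 FPKM in HF-SCs of Co mice, with 1.65, 1.65 and 8.16 in the GFP fraction and 1.26, 2.30 and 6.86 in the Tom fraction. Only mouse 817 was above every Co library, and neither difference passed the test (0.54 and 0.49, adjusted p = 0.370 and 0.397, limma). In b-KCs it had 0.0408, 0.209 and 0.0463 FPKM in the Co libraries, with 0.383, 0.378 and 0.845 for GFP and 0.0446, 0.288 and 0.239 for Tom. The b-KC GFP libraries were above b-KC Co and the Tom libraries overlapped with it, and neither difference passed (adjusted p = 0.419 and 0.863, limma). Between control populations, Lyz2 was higher in HF-SC Co than in b-KC Co by 1.33 (SE 0.45, adjusted p = 0.0219, limma). It was the only 1 called of the 4 members that passed the filter, where 51.9% of all genes past it were called in either direction. Without a filter it was the only 1 called of the 10, beside 37.2% of all genes. The call with the filter was lost without Co mouse 810 or 825 (adjusted p = 0.146 and 0.103, limma).

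Csf1r, the receptor of Csf1 and Il34 on macrophages and Langerhans cells, overlaps Hmgxb3 on the opposite strand, and the libraries were not stranded, so its FPKM can hold reads of both. It had 0.151, 0.276 and 0.180 FPKM in HF-SCs of Co mice, with 0.231, 0.380 and 3.14 in the GFP fraction and 0.187, 0.265 and 2.15 in the Tom fraction. Mouse 817 stood 10.3-fold above the mean of the other mice in GFP and 9.52-fold in Tom, and the libraries of mice 814 and 815 overlapped with Co. The differences from Co were 0.67 and 0.48 in the fit without a filter (adjusted p = 0.235 and 0.388, limma). In b-KCs, Csf1r was at 0.0556 to 0.261 FPKM in all 9 libraries, and the GFP libraries (0.0913, 0.129 and 0.0971) were just above Co (0.0556, 0.0684 and 0.0632).

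The ligands of Csf1r were far more abundant than the receptor and moved in opposite directions. Il34 fell in all 4 DKO* populations, in b-KCs from 55.4, 80.0 and 79.3 FPKM in Co to 24.3, 25.9 and 29.8 in GFP and 16.3, 22.4 and 28.4 in Tom (log2 differences -1.38 and -1.65, adjusted p = 0.000203 and 2.65e-05, limma). In HF-SCs it fell from 21.7, 17.9 and 19.8 FPKM to 13.0, 12.3 and 11.9 in GFP and 6.02, 9.13 and 11.5 in Tom (-0.63 and -1.11, adjusted p = 0.0274 and 0.000597, limma). Csf1 rose from 3.59, 3.59 and 3.78 FPKM in HF-SC Co to 8.75, 11.0 and 7.72 in GFP and 15.4, 17.8 and 12.1 in Tom (log2 differences 1.11 and 1.78, adjusted p = 4.21e-05 and 3.39e-07, limma). Csf1 also rose in b-KC GFP (0.63, adjusted p = 0.00462, limma), while b-KC Tom, at 6.10, 5.42 and 6.52 FPKM, overlapped with Co at 6.55, 5.34 and 7.01.

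Csf3r, the G-CSF receptor of neutrophils (chromosome 4, 125701794 to 125722219, plus strand), had 0.0681, 0.120 and 0.126 FPKM in HF-SCs of Co mice, with 0.115, 0.0498 and 0.280 in the GFP fraction and 0.304, 0.106 and 0.367 in the Tom fraction. The groups overlapped, and the Tom difference of 0.18 had an unadjusted p = 0.0385 that did not pass after adjustment (adjusted p = 0.0979, limma without a filter). In b-KCs it stayed below 0.23 FPKM in all 9 libraries. Its ligand Csf3 (G-CSF) rose in all 4 DKO* populations, from 2.11, 1.65 and 0.963 FPKM in HF-SCs of Co mice to 7.89, 8.19 and 5.62 for GFP and 93.3, 88.0 and 64.2 for Tom (log2 differences 1.69 and 5.02, adjusted p = 0.000943 and 2.91e-08, limma). In the mice in which Csf3 was at 64.2 FPKM or more, its receptor thus stayed at 0.367 FPKM or less. Icam1, a ligand of the Itgb2 integrins, rose from 35.8, 42.1 and 35.5 FPKM in HF-SC Co to 91.7, 109 and 120 in GFP and 437, 520 and 195 in Tom (log2 differences 1.47 and 3.20, adjusted p = 0.00209 and 1.72e-06, limma).

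**Figure D2:**
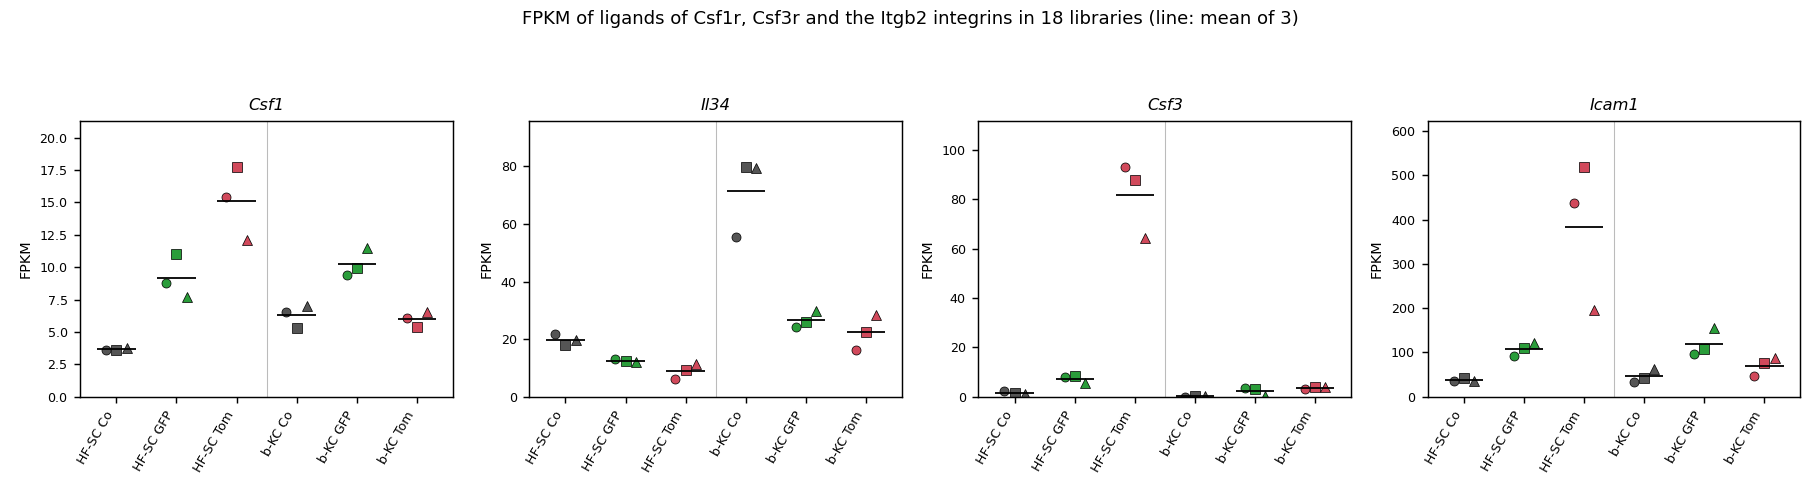
FPKM (y axis, linear, a scale of its own for each gene) of Csf1 and Il34 (ligands of Csf1r), Csf3 (ligand of Csf3r) and Icam1 (ligand of the Itgb2 integrins) in the 6 groups (x axis), 1 point per library and the mean of 3 as a line. Il34 is highest in b-KC Co at 55.4 to 80.0 FPKM, and Csf3 is highest in HF-SC Tom at 64.2 to 93.3 FPKM.

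Ptprc (chromosome 1, 139959438 to 140071882, minus strand), the gene of the marker that the gate left out, had 0, 0.0414 and 0.0158 FPKM in HF-SCs of Co mice, with 0.121, 0.0517 and 0.946 in the GFP fraction and 0.152, 0.0735 and 0.539 in the Tom fraction. Every DKO* HF-SC library was above every HF-SC Co library, and mouse 817 was 10.9-fold above the mean of the other mice in GFP and 4.79-fold in Tom. Its differences of 0.37 and 0.28 did not pass the test (adjusted p = 0.138 and 0.248, limma without a filter), and without mouse 817 its Tom difference was 0.13 and passed it (adjusted p = 0.0107, limma). In b-KCs it was at 0 to 0.0636 FPKM, and 9 of the 18 libraries were at or below the 3-read floor. Cd3e, a chain of the T cell receptor complex (chromosome 9, 44806826 to 44817673, minus strand), was at or below that floor in 16 of 18 libraries and highest in b-KC Co of mouse 810 (0.210 FPKM), and no difference was detectable at this depth. Its partner chains Cd3d and Cd3g stayed at or below 0.282 FPKM. Cd247 (CD3 zeta, also used by NK cells) was at 2.09, 1.94 and 0.506 FPKM in HF-SC Tom and at 0.192 or less in the other groups, and rose in HF-SC Tom (1.18, adjusted p = 0.000292, limma without a filter).

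Cd207 (langerin, chromosome 6, 83621201 to 83627851, minus strand) had 0.127, 0.595 and 0.268 FPKM in HF-SCs of Co mice, with 0.234, 0.321 and 1.07 in the GFP fraction and 0.198, 0.696 and 0.989 in the Tom fraction. In b-KCs it had 0.113, 0.202 and 0.224 FPKM in the Co libraries, with 0.165, 0.391 and 0.615 for GFP and 0.247, 0.232 and 0.957 for Tom. The groups overlapped except that b-KC Tom lay just above b-KC Co, and the 4 differences from Co, 0.19 to 0.29 on the log2 scale, did not pass the test (adjusted p = 0.421 to 0.626, limma without a filter). Among Langerhans and dendritic cell genes outside the list, Cd74, Ciita, H2-Aa, H2-Ab1, H2-DMa and H2-Eb1 of MHC class II antigen presentation, were each called higher in all 4 DKO* populations (limma without a filter). They were the 6 of 14 list genes called higher in HF-SC GFP and in either b-KC fraction, beside 12.7%, 12.9% and 14.3% of all genes. In HF-SC Tom 7 were called higher, beside 17.3%, the other being Zbtb46, a dendritic cell factor also present in endothelium, at 5.02, 7.95 and 1.49 FPKM. Cd74 went from 2.75, 6.21 and 5.45 FPKM in HF-SC Co to 110, 144 and 123 in HF-SC GFP, and from 3.32, 6.07 and 6.53 in b-KC Co to 400, 805 and 167 in b-KC Tom. In both HF-SC fractions Cd74 was highest in mouse 815, not in mouse 817, and Flt3 and Ccr7 stayed at or below 0.137 FPKM in every library. Cd83, a maturation marker of dendritic cells on the same list, fell in b-KCs from 1.57, 2.27 and 1.65 FPKM in the Co libraries to 0.472, 0.584 and 0.528 for GFP and 0.0883, 0.119 and 0.402 for Tom (log2 differences -0.88 and -1.24, adjusted p = 0.0219 and 0.00253, limma without a filter). In HF-SCs its differences of 0.32 and 0.65 did not pass the test (adjusted p = 0.416 and 0.0693, limma without a filter). Cd209a, at or below 0.108 FPKM in every library, was called lower in both HF-SC fractions. It was listed at 0 in all their libraries and had 0.0986, 0.108 and 0 FPKM in HF-SC Co, so 1 Co library did not differ from them.

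Against HF-SC Co, 3 of the 10 genes (Fcer1g, Itgam, Tyrobp) were called higher in HF-SC GFP and 2 (Fcer1g, Tyrobp) in HF-SC Tom at an adjusted p under 0.05, in the fit of 12751 genes past a filter of at least 1 FPKM in at least 3 libraries. This filter kept 4 of the 10 genes, Itgam, Lyz2, Tyrobp and Fcer1g, which passed it mainly through the HF-SC groups in which they were high, and the same genes were called in the fit of all 10 without a filter. Among all genes, 18.5% were called higher in HF-SC GFP and 22.3% in HF-SC Tom with the filter, and 12.7% and 17.3% without it. At an adjusted p under 0.01 and an absolute log2 difference of at least 2, only Fcer1g in HF-SC Tom remained, against 4.09% of the genes past the filter. In b-KC GFP and b-KC Tom, 0 of the 10 genes were called by limma, also 0 at an unadjusted p under 0.05, while 20.3% and 22.6% of all genes were called higher with the filter and 12.9% and 14.3% without it. Without mouse 817, Fcer1g, Itgam and Tyrobp were called higher in b-KC GFP (log2 differences 0.48, 0.35 and 0.61, adjusted p = 0.0172, 0.0262 and 0.0209, limma), a setting in which the share of all genes called higher there was 29.7% in place of 20.3%. Calls over all genes rose in each comparison without this mouse, with the filter to 24.4% for GFP and 29.9% for Tom HF-SCs and 28.4% for Tom b-KCs, and without it to 24.0% for Tom HF-SCs. They rose to 22.9% between HF-SC Tom and GFP, 6.67% between b-KC Tom and GFP, 63.8% between the Co populations, and 30.8% and 25.4% for the GFP and Tom changes between cell types.

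Without a filter, the median log2 difference of the 10 genes was 0.46 for GFP and 0.32 for Tom in HF-SCs and 0.16 for GFP and 0.06 for Tom in b-KCs, beside a median of 0 over all 19924 genes in each comparison. Without mouse 817 these medians were 0.05, 0.12, 0.09 and 0.02. All 3 DKO* libraries were above all 3 Co libraries for 4 of the 10 genes in HF-SC GFP (Ptprc, Itgam, Tyrobp, Fcer1g), for 3 in HF-SC Tom (Ptprc, Tyrobp, Fcer1g), 6 in b-KC GFP (Ptprc, Itgam, Csf1r, Lyz2, Tyrobp, Fcer1g) and 1 in b-KC Tom (Cd207). Over all genes this held for 19.1%, 20.2%, 20.5% and 22.7%. In b-KCs, Ptprc stood for 2.2 reads in GFP of mice 814 and 815 and in Co mouse 828, below the 3-read floor. Cd207 stood for 7 reads in b-KC Tom of mouse 815 and in b-KC Co of mice 825 and 828. Neither of these separations was therefore one of read number. The GFP and Tom comparisons of a cell type share their Co libraries.

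**Figure D3:**
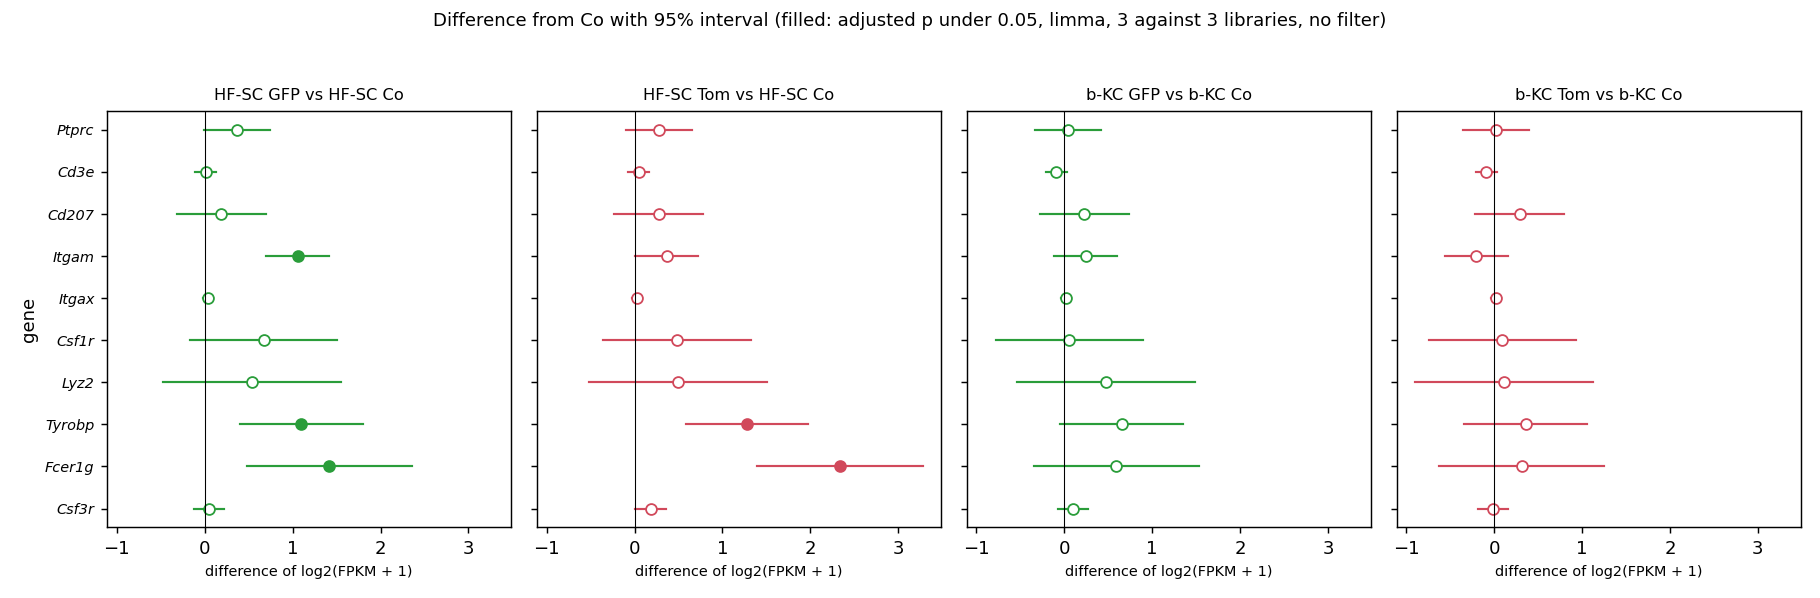
Difference of log2(FPKM + 1) from Co (x axis) for each of the 10 genes (y axis) in the 4 DKO* populations, with 95% intervals from limma without a filter and 3 against 3 libraries, and filled points where the adjusted p is under 0.05. Filled points are Itgam, Tyrobp and Fcer1g in HF-SC GFP and Tyrobp and Fcer1g in HF-SC Tom, and no gene has one in b-KCs.

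Between the fractions of the same mice, Itgam was the 1 gene of the 10 called between HF-SC Tom and HF-SC GFP, against 8.63% of genes with the filter and 7.91% without. Between b-KC Tom and b-KC GFP, 0 were called by limma, against 1.71% and 0.969% of all genes, and 1 (Itgam, -0.45, adjusted p = 0.296) had an unadjusted p under 0.05. Itgam in b-KCs was called with the mouse as a fixed block (adjusted p = 0.0434, limma) and without mouse 817 (-0.51, adjusted p = 0.0355, limma). With the block, 103 of all 12751 genes were called higher and 371 lower, against 66 and 152 without it. Without mouse 817, 6.67% of them were called. Without a filter, 37.2% of all genes differed between HF-SC Co and b-KC Co. In the tests of HF-SC against b-KC changes, Itgam was the 1 gene called for GFP, against 12.5% of genes with the filter and 8.52% without, and Fcer1g the 1 called for Tom, against 15.8% and 11.9%.

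The order of the group means differed between genes. Tyrobp and Fcer1g were highest in the Tom and then the GFP fraction of HF-SCs, followed by GFP and then Tom b-KCs, and lowest in HF-SC Co and b-KC Co. Of the 5 neighbouring pairs in this order, the libraries were apart in 1 pair for Fcer1g (HF-SC GFP over b-KC GFP) and in 0 for Tyrobp. Ptprc, Csf1r, Lyz2, Itgam and Itgax had their highest mean in HF-SC GFP, and Cd207 and Csf3r in HF-SC Tom. For Ptprc, Lyz2 and Itgax this rested on mouse 817: over mice 814 and 815 the means in GFP and Tom HF-SCs were 0.0864 and 0.113 FPKM for Ptprc, 1.65 and 1.78 for Lyz2 and 0.00556 and 0.00945 for Itgax, and the HF-SC Co mean of Lyz2, at 1.88 FPKM, was above both. For Itgam, HF-SC GFP was apart from b-KC GFP, its neighbour in order, and b-KC Co was apart from b-KC Tom.

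Mouse 817 was the highest of its group for 10 of the 10 genes in HF-SC GFP and 9 in HF-SC Tom, and for 7 in either b-KC fraction. Across the 18 libraries, which share mice and so are not independent, log2(FPKM + 1) of Ptprc correlated with Csf1r at r = 0.97 and Tyrobp with Fcer1g at r = 0.93. Itgam with Cd207 and Cd3e with Cd207 had r = 0.27 and 0.08, and Cd3e reached no more than 0.27 with any other member. Among the genes past the filter and outside the list, those most like Fcer1g in these libraries were Alox5ap (r = 0.956), Lilrb4 (0.941) and Plek (0.940). For Tyrobp they were Osm, Lilrb4 and Gp49a (0.962, 0.959 and 0.957), and for Lyz2 they were C1qb, Tmem108 and C1qc (0.961, 0.958 and 0.958). Itgam stood closest to 9530059O14Rik (0.873), Pgf (0.866) and Ak4 (0.836). For the mean over the 10 genes they were Plek, Ctss, Gp49a, Pf4 and Osm, with r from 0.945 to 0.967.

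Other marker lists differed in how they followed these genes. The 16 monocyte and macrophage markers summed to 5.14 to 7.56 FPKM in HF-SCs of Co mice, to 10.5, 10.7 and 36.8 in their GFP counterparts and to 9.22, 9.57 and 20.7 in the Tom fraction, again with mouse 817 highest, and to 3.10 to 8.67 in all b-KC groups. Of these 16, 4 were called higher in HF-SC GFP (Aif1, Ly6c2, Ms4a7, Spi1) and 2 in HF-SC Tom (Aif1, Ms4a7) without a filter, beside 12.7% and 17.3% of all genes, so the count in Tom was below the share of all genes. Mrc1 and Cd163 (mannose and scavenger receptors of macrophages) were at 3.59 and 2.21 FPKM in HF-SC GFP of mouse 817, at 1.44 and 1.47 in its HF-SC Tom and at no more than 0.243 in the HF-SC libraries of the other mice. The 13 neutrophil markers above 0 anywhere summed to 1.46 to 1.91 FPKM in Co and 6.87 to 11.9 in DKO* groups, but most of this was Cxcr2, which rose in all 4 DKO* populations. Retnlg, a neutrophil secreted factor, was listed at 0 in all Co libraries and reached 2.19 FPKM in HF-SC Tom. Of the granule genes, Ngp, Ltf, Elane and Mpo stayed at or below 0.145 FPKM in every library, while Camp rose in b-KC GFP, with 1.52, 0.666 and 0.471 FPKM against at most 0.147 in b-KC Co (log2 difference 0.78, adjusted p = 0.00291, limma without a filter). Mmp8 reached 0.686 FPKM in HF-SC GFP of mouse 817 and was called in no population, and Cebpe was listed at 0 throughout.

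The T cell list summed to 2.91 to 3.85 FPKM in HF-SCs of Co mice, 4.67 to 6.84 for GFP and 5.65 to 10.9 for Tom, and to 13.2 to 44.6 in b-KCs, where it was mostly Thy1, while Cd4 and Cd8a stayed at or below 0.190 FPKM. Of the 14 pan-leukocyte markers, 9 were called higher in the GFP and 8 in the Tom fraction of HF-SCs without a filter, and 7 and 2 in those of b-KCs, beside 12.7% and 17.3%, then 12.9% and 14.3% of all genes, and the count in b-KC Tom was no more than that share, with Arhgdib and Vav1 in all 4. Arhgdib was highest at 415 to 561 FPKM in b-KC GFP and Vav1 at 5.50 to 8.61, the group in which Ptprc was at 0.0193 to 0.0636. The 7 mast cell markers above 0 were led by Hdc, at 36.0 to 51.7 FPKM in HF-SC Tom, with Mcpt4 listed at 0 throughout, and the B and NK cell list by Cd79b, at 1.30 to 2.11 FPKM in HF-SC GFP and 0.628 to 2.91 in b-KC GFP.

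The 8 endothelial markers, which a CD34 gate can take in, were all called higher in HF-SC Tom and all lower in HF-SC GFP (limma without a filter), beside 17.3% of all genes called higher and 14.3% called lower there. They summed to 47.0 to 77.4 FPKM in HF-SC Co, 410 to 1267 in HF-SC Tom and 16.1, 25.9 and 1.03 in HF-SC GFP of mice 814, 815 and 817. Among the HF-SC libraries they were lowest in HF-SC GFP of mouse 817, the library in which the 10 genes summed highest. The fibroblast and mural list had 1 of 8 called in HF-SC Tom (Col1a2, lower) and 0 in the other DKO* populations, and the melanocyte list had 2 of 5 called higher in HF-SC GFP (Dct, Tyrp1), beside 12.7% of all genes. Of 7 keratinocyte markers, Col17a1 and Trp63 were called lower in HF-SC Tom and Col17a1 in both b-KC fractions, and none was called higher. Krt14 was nevertheless higher without overlap in HF-SCs, at 2085 to 2479 FPKM in Co, 4050 to 4612 for GFP and 5704 to 6787 for Tom, and its test, whose error is shared with the 3 b-KC libraries listed at 0, had an SE of 3.33 on the log2 scale without a filter. Of 8 bulge markers, 4 were called lower in HF-SC GFP and 5 in HF-SC Tom, against 14.3% and 15.6% of all genes called lower there, and 1 and 4 in the GFP and Tom fractions of b-KCs, against 13.5% and 15.6%. Krt15 of this list had a listed 0 for Co mouse 828 in HF-SCs and 11261 and 11764 FPKM for the other Co mice, and was called in no population. The part of these cell types in the differences of the 10 genes was not tested.

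**Figure D4:**
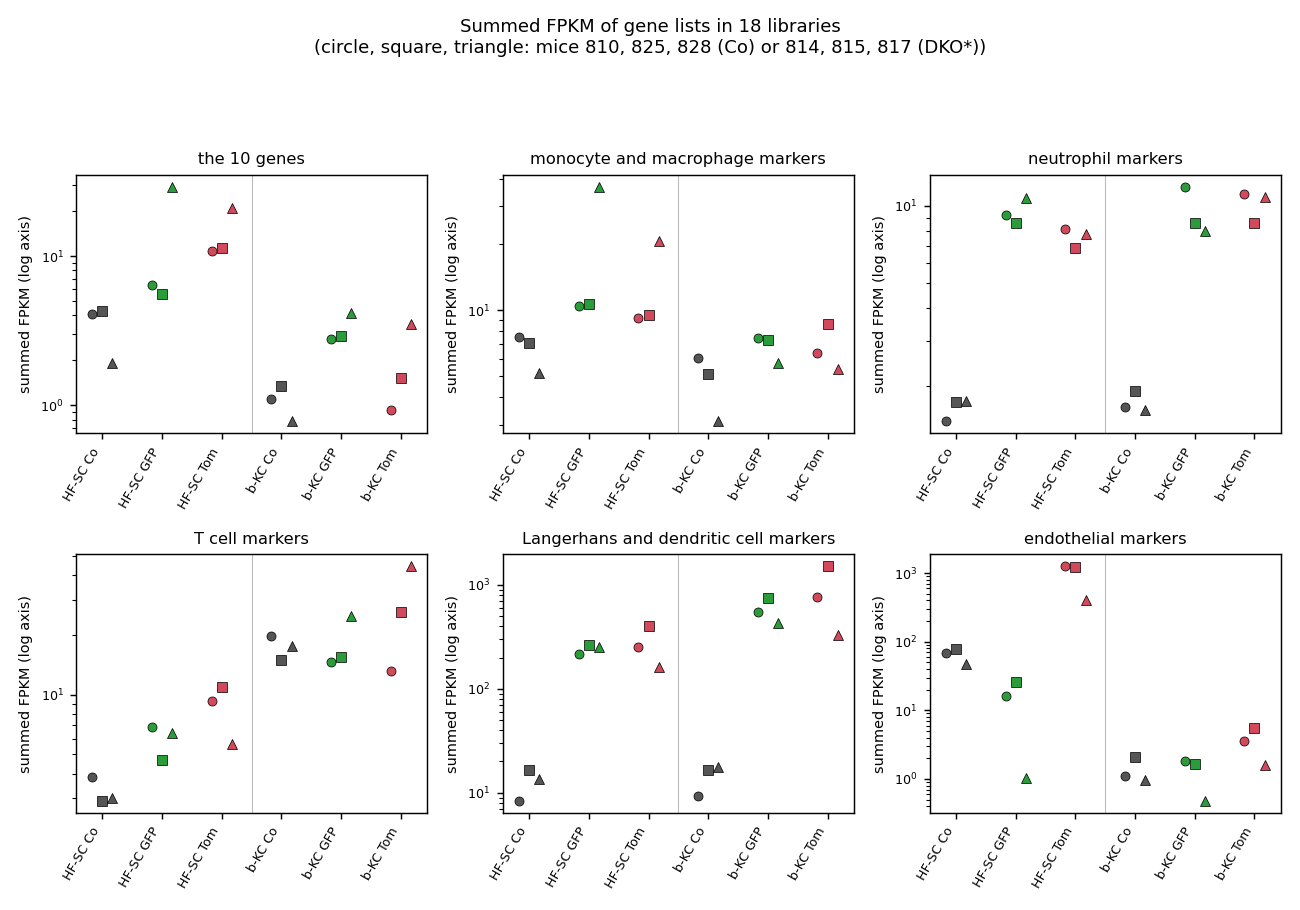
Summed FPKM (y axis, log scale) of the 10 genes and of 5 marker lists in the 6 groups (x axis), 1 point per library with the mouse given by the marker shape. The 10 genes and the monocyte and macrophage list are highest in HF-SC GFP of mouse 817 (29.2 and 36.8 FPKM), the endothelial list is highest in HF-SC Tom (410 to 1267 FPKM) and the Langerhans and dendritic cell list, mostly MHC class II genes, is above Co in every DKO* library.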

How the data were processed

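RNA of 18 sorted ear skin populations was amplified from 4 to 10 ng with an oligo(dT) template-switching kit (SMART-Seq v4), made into unstranded Nextera XT libraries with 12 PCR cycles and sequenced as 51-base single-end reads. The authors aligned them to NCBI37/mm9 with TopHat 2.0.10, 2 mismatches and 20 multihits allowed, and deposited an FPKM table with 1 column per library, made with Cufflinks 2.2.1 per the submitters' processing notes, which also name GRCm38 and mm10. FPKM values deposited by the authors are scaled for transcript length and library size and are not counts. Near-identical paralogs and overlapping genes are uncertain.

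From these values, log2(FPKM + 1) was fitted for the 12751 genes that reached 1 FPKM in 3 or more of the 18 libraries with limma 3.58.1 (R 4.3.3; lmFit, contrasts.fit, eBayes with a trend), 1 mean per group, with Benjamini-Hochberg adjustment over all tested genes in a comparison and a threshold of 0.05. Because 6 of the 10 members lie below the filter, the planned fit of all 19924 genes above 0 anywhere is given beside it, and is the source of the values for those 6 and of the list counts. The step was tested on simulated data with changes larger than those of the members in this fit, independent noise and no shared mice. That test cannot show how well small differences near the floor are found. Implied depth came from the size of 1 read in low values of 7744 genes with 1 annotated transcript (76.9% to 81.1% of low values within 0.1 of a whole read), and the 3-read floor covers counting error only, because PCR copies carry no molecular identifiers and cannot be told from separate molecules. Gene positions are from GENCODE M1 on NCBIM37. Plots and summaries used Python 3.11.15, pandas 2.3.3, numpy 2.4.6 and matplotlib 3.10.9.

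Groups follow the sample labels. The label numbers are mice, so libraries with the same number are paired: deviations from group means correlated across genes in 21 same-mouse pairs with r from 0.08 to 0.70 (median 0.32). The mouse was entered as a random or fixed block in alternatives. Others were a pseudocount of 0.1, no filter, rescaled libraries, no trend, only the groups compared, a stricter threshold and each mouse left out. The genes named are the 10 members, their ligands and partners, those described among the 2 most abundant genes of each marker list, and the genes most correlated with the members. Spi1, Mrc1, Cd163, Flt3, Ccr7, Cd4, Cd8a, Mcpt4, Cd34, Cd83, the granule genes and the genes listed as called were named after their values were seen. The members and lists were chosen with earlier results of these data known. Differences over 3 mice per group measure the spread between these mice.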

Additional observations from a re-analysis of the deposited data

Results flagged for a closer look

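Itgam differed between cell types in its change to GFP, the HF-SC change exceeding the b-KC change by 0.81 on the log2(FPKM + 1) scale in the interaction term of limma (adjusted p = 0.0443, and 0.0479 without a filter). Every GFP library was above every Co library in HF-SCs and also in b-KCs, as for 19.1% and 20.5% of all genes. For Fcer1g, the change to Tom in HF-SCs exceeded that in b-KCs by 2.02 on the same scale (adjusted p = 0.0295, and 0.0483 without a filter, limma), with all 3 HF-SC Tom libraries at 5.60 FPKM or more and all 3 b-KC Tom libraries at 0.844 or less. Both genes passed the filter mainly through the HF-SC groups in which they were high. Both differences kept their side of the threshold in 7 of 14 alternatives and their direction in all 14. Single libraries of the groups of 3 were not tested for standing apart.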

How the results depend on the processing

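The rises of Itgam in HF-SC GFP and of Fcer1g and Tyrobp in HF-SC Tom kept their direction and call in all 14 alternatives tried (adjusted p at most 0.00461, 0.00472 and 0.0309, limma), and no called value changed direction in any. Fcer1g in HF-SC GFP was called in 11 of 14 (adjusted p 0.00280 to 0.0795) and Tyrobp in 13 of 14, Lyz2 between Co populations in 13 of 15, and Itgam in Tom against GFP HF-SCs in 9 of 15. The counts of called members moved as follows. At an adjusted p under 0.01 and a log2 difference of at least 2, HF-SC Tom kept 1 and HF-SC GFP, HF-SC Tom against GFP, HF-SC Co against b-KC Co and both tests of HF-SC against b-KC changes had 0. A pseudocount of 0.1 gave 2 for GFP b-KCs, 0 for HF-SC Tom against GFP, 0 in both tests of changes, and 1 in b-KC GFP and the same 0 for the others without a filter. In b-KC GFP it called 2681 of all 12751 genes higher, and 2729 of 19924 without a filter. With only the groups compared, HF-SC GFP had 2 (Fcer1g lost), b-KC GFP 3, b-KC Tom 1 and HF-SC Tom against GFP 0. Of all 12751 genes, 2396 were called higher and 2486 lower, 2844 and 3042, 3478 and 3666, and 313 and 62, in this order.

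With the mouse as a fixed replicate block in a fit of the 2 groups alone, HF-SC Tom against GFP had 0, b-KC Tom against GFP 1 and HF-SC Co against b-KC Co 2. Of all 12751 genes, 481 were called higher and 148 lower, 103 and 371, and 3922 and 4606, in this order. The random replicate block (consensus correlation 0.274) changed no call. Leaving out 1 mouse at a time gave 1 to 3 called members in HF-SC GFP, 2 to 3 in HF-SC Tom, 0 to 3 in b-KC GFP, 0 to 0 in b-KC Tom, 0 to 2 in HF-SC Tom against GFP, 0 to 1 in b-KC Tom against GFP, 0 to 1 in HF-SC Co against b-KC Co, 0 to 1 for the GFP and 0 to 2 for the Tom change between cell types. Over these fits, 1704 to 3110 of all 12751 genes were called higher in HF-SC GFP and 2056 to 3807 in HF-SC Tom. In b-KCs these ranges were 1322 to 3784 for GFP and 1890 to 3625 for Tom. Without mouse 817, b-KC GFP had 3 called members (Fcer1g, Itgam, Tyrobp), HF-SC Tom against GFP 2 (Fcer1g, Itgam), b-KC Tom against GFP 1 (Itgam) and the Tom change 2 (Fcer1g, Tyrobp), while the shares of all genes called rose from 20.3% to 29.7%, 8.63% to 22.9%, 1.71% to 6.67% and 15.8% to 25.4%. Without a filter and without mouse 817, an alternative chosen after seeing the data like the pseudocount of 0.1 without a filter, HF-SC GFP, HF-SC Tom and b-KC GFP had 3 each, HF-SC Tom against GFP 2, b-KC Tom against GFP 1 and HF-SC Co against b-KC Co 2, with 17.5%, 24.0%, 20.5%, 18.4%, 4.20% and 46.0% of all genes called there in this order. The cause was not tested. At 3 mice per group and levels near the floor of 3 reads, differences of Cd3e, Itgax and, in b-KCs, Ptprc could not be resolved.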
